A study of Bos taurus with 129 samples.

Results

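The constitutive proteasome subunit genes were taken from the whole blood transcriptomes of stocker steers as every gene whose symbol names a proteasome alpha, beta, ATPase, non-ATPase or activator subunit (PSMA, PSMB, PSMC, PSMD or PSME with a number). Of the 32395 genes in the deposited table, 43 carried such a symbol. PSMB8, PSMB9 and PSMB10, the inducible catalytic subunits, were set aside by name. PSMA8 and PSMB11, the testis and thymus forms, were set aside because their mean level over all libraries was below 1 CPM (counts scaled to a common library size), and no library held more than 5 counts of either. The 38 genes that remained are the 7 alpha ring genes PSMA1 to PSMA7, the 4 structural beta genes PSMB1 to PSMB4, the 3 catalytic beta genes PSMB5 to PSMB7, the 6 ATPase genes PSMC1 to PSMC6, the 3 base genes PSMD1, PSMD2 and PSMD4, the 8 lid genes PSMD3, PSMD6 to PSMD8 and PSMD11 to PSMD14, the 3 cap assembly chaperone genes PSMD5, PSMD9 and PSMD10, and the 4 activator genes PSME1 to PSME4. All 38 passed the filter on low counts and were among the 18937 genes tested, and each had counts in every library.

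The proteasome is the protease that degrades proteins tagged with ubiquitin. Its core is a barrel in which outer alpha rings gate the entrance and inner beta rings hold the catalytic sites, and its regulatory cap recognises ubiquitin, unfolds the substrate with a ring of ATPases and feeds it into the core. Alternative activators can bind the core in place of the cap, and in blood leukocytes interferons induce the immunoproteasome, in which PSMB8, PSMB9 and PSMB10 replace PSMB5, PSMB6 and PSMB7 and the peptides made for antigen presentation change.

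Blood was collected in RNA-stabilising tubes from 26 commercial crossbred beef steers on the day they were enrolled in pens (day 0) and on days 13, 28, 45 and 60, and poly(A) RNA was sequenced. The labels give a disease status of no (12 animals, called healthy here) or yes (14 animals, called BRD here for bovine respiratory disease); the day on which an animal fell ill is not in the labels, so a BRD library may come from before, during or after disease. INR steers (4 healthy, 7 BRD) received sulfate sources of copper, cobalt, manganese and zinc, AAC steers (4 healthy, 4 BRD) received amino acid-complexed sources, and COMBO steers (4 healthy, 3 BRD) received the complexed sources with an oral mineral drench before shipment, on day 0 and with any treatment for illness. All groups were vaccinated and dewormed alike and had tested negative for persistent viral diarrhoea virus infection. The day 13 library of healthy AAC animal 48 was not among the libraries analysed, which left 25 libraries on that day and 26 on every other day. Each starting pen received 1 supplement, so supplement and starting pen group cannot be told apart, and the steers were later rotated between pens. The pen labels are read here as starting pens. They give pen 5 for the healthy and pen 6 for the BRD COMBO animals, whereas both disease labels were found in the AAC pens 2 and 8 and, in part, in the INR pens.

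Total counts per library ranged from 31613545 to 61692136, with a median of 44268685, and no pair of libraries held identical counts. Levels below are CPM scaled by the trimmed mean of M values (TMM), and they are compared between libraries for a gene, not between genes, because transcript lengths were not used. Day comparisons were fitted in edgeR with each animal as its own control, averaged over the healthy and BRD changes. Label and supplement comparisons were fitted in edgeR with a mean for each of the 30 combinations of supplement, label and day, a model with no term for the animal. A gene was called at a false discovery rate (FDR) below 0.10 over all genes tested. Whole blood is a mixture of cells, so fewer cells of a type and less RNA per cell cannot be told apart in any value below. Cell counts were not used here, so shifts in blood composition were followed by marker genes alone.

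The 38 subunit genes were among the more evenly expressed genes of these blood samples. The standard deviation of log2 CPM over all libraries ranged from 0.09 for PSME3, the nuclear activator also called PA28 gamma, to 0.29 for PSME2, the beta subunit of the interferon-inducible activator PA28. The median over the members was 0.18, beside 0.42 over all genes tested and 0.22 over the 7207 genes in the members' range of mean level. For 31 of the 38 members it lay among the lowest 25% of all genes tested. The inducible subunits set aside by the rule spread more, with 0.30 for PSMB9, 0.31 for PSMB8 and 0.69 for PSMB10. Differences between animals took a median of 25.8% of a member's variance, day took 5.40% and the remainder took 66.8%. Over all genes tested these medians were 42.1%, 5.57% and 48.5%. With 1 library per animal and day, the remainder holds both change within an animal and error between libraries, which cannot be told apart. Day took the largest share among the members for PSMD11, a lid subunit, at 18.64%, followed by PSME3 at 13.00% and PSMD1, a scaffold of the cap base, at 12.34%.

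Most members varied together from library to library. The first principal component of the 38 genes held 67.4% of their variance over libraries, and 36 of the 38 had a loading of the same sign. The exceptions were PSME4, the activator PA200, and PSMD12, a lid subunit. Within each day, the log2 level of a member was set beside the mean of the other 37 members over the 25 or 26 animals. The median of the 5 daily Pearson correlations was above 0.5 for 32 members, and 30 members were above 0.5 on each day. PSMA5, an alpha ring subunit, followed the others most closely, with r between 0.93 and 0.98. The catalytic genes also followed them, with r from 0.66 to 0.93 for PSMB5, from 0.72 to 0.96 for PSMB6 and from 0.81 to 0.98 for PSMB7. PSME1 and PSME2, the alpha and beta subunits of PA28, gave 0.57 to 0.83 and 0.64 to 0.91. PSME4 ran against the others on days 13, 28 and 60, with r of -0.51, -0.56 and -0.71, and gave -0.01 on day 0 and -0.12 on day 45. PSME3 ranged from -0.26 to 0.59, PSMD12 from -0.52 to 0.35 and PSMD10, a chaperone of cap assembly also called gankyrin, from -0.02 to 0.49. These correlations describe genes that share a library and its scaling factor, and no test was attached to them.

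The shared level varied between libraries of the same animal. The mean deviation of the 38 genes from their averages, on the log2 scale, ran from -0.44 in healthy INR animal 30 on day 60 to 0.42 in BRD COMBO animal 54 on day 28. In BRD INR animal 40 it was -0.02 on day 0, -0.40 on day 13, 0.35 on day 28, 0.11 on day 45 and 0.41 on day 60. Animal 54 gave 0.24, -0.21, 0.42, 0.02 and 0.36 on the same days. Animal 30 gave -0.01, -0.24, -0.27, 0.17 and -0.44. These animals were named after their values were seen. In 1 library, that of BRD COMBO animal 18 on day 0, all 38 members were above their own medians over libraries, and in 2 libraries, those of animal 30 on days 13 and 28, none were. At least 34 of the 38 members were above their medians in 19 libraries of 13 animals, of which 5 were from day 0, 5 from day 13, 4 from day 28, 4 from day 45 and 1 from day 60. At most 4 were above in 26 libraries of 17 animals, of which 3 were from day 0, 10 from day 13, 6 from day 28, 1 from day 45 and 6 from day 60. The library of animal 40 on day 60 was noted by the study for low RNA integrity.

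**Figure D1:**
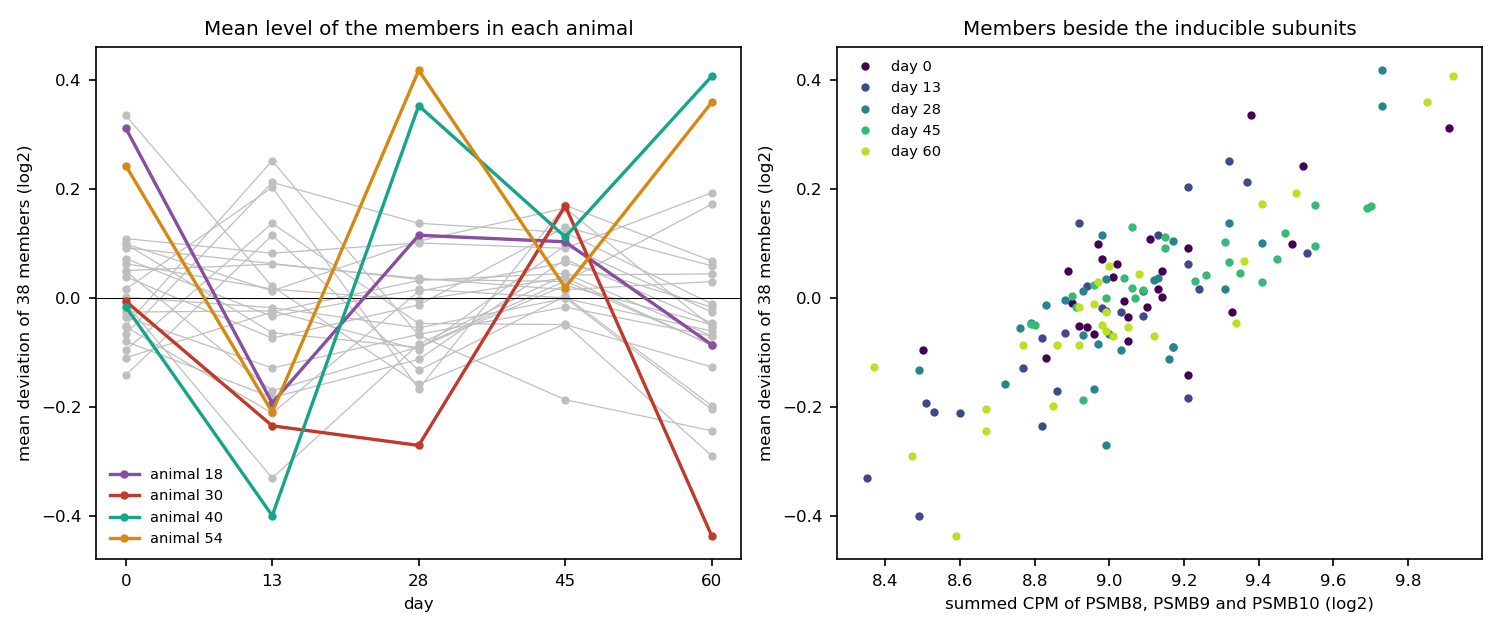
Left, mean deviation of the 38 members from their averages (log2) in each animal (line) by day, with animals 18, 30, 40 and 54 in colour; right, the same value in each library against the log2 summed CPM of PSMB8, PSMB9 and PSMB10, coloured by day. Animals 40 and 54 stood low on day 13 and high on days 28 and 60, animal 30 was lowest on day 60 at -0.44, and libraries with more inducible subunit RNA also had more of the members.

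The inducible catalytic subunits tracked the members. Over the animals of a day, the mean deviation of the 38 members and the log2 summed CPM of PSMB8, PSMB9 and PSMB10 had a Pearson r of 0.70 on day 0, 0.81 on day 13, 0.75 on day 28, 0.76 on day 45 and 0.90 on day 60. Without the 2 animals farthest from the day's median on the inducible axis, these were 0.56, 0.80, 0.47, 0.69 and 0.81. Both quantities come from the same libraries, and the values are a description over 25 or 26 animals a day. For the marker lists of blood cell types r varied from day to day. The B cell list gave 0.29, 0.00, 0.42, 0.27 and 0.51 on days 0 to 60, and 0.71, 0.09, 0.43, 0.03 and 0.45 without the 2 farthest animals of each day. The sign of r changed between days for the T cell, neutrophil, platelet and natural killer lists, and r lay between -0.30 and -0.08 for the erythroid list, between -0.49 and -0.01 for the monocyte list and between 0.10 and 0.76 for the plasma cell list. The type I interferon list gave 0.29, 0.40, 0.15, 0.07 and 0.01 on the same days, the interferon-gamma list lay between 0.08 and 0.39, and the proliferation list between 0.03 and 0.51. The part of cell composition in the shared level was not tested.

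Against day 0, few proteasome genes passed the test on any later day, and the changes were small. No member had a log2 fold change beyond 0.3 in size on any day, whereas 20.8% to 24.3% of all genes tested did. That share was not limited to genes in the members' range of mean level. On day 13, 7 of the 38 members were lower and 0 were higher by the edgeR quasi-likelihood test at FDR below 0.10. Over all genes tested, 32.23% were called on that day, 16.92% higher and 15.31% lower. On day 28, 3 members were lower and 1 was higher, beside 35.84% of all genes, 17.33% lower and 18.51% higher. On day 45, 2 members were higher and 0 were lower, beside 29.90% of all genes, 15.30% higher and 14.60% lower. On day 60, 8 members were lower and 0 were higher, beside 32.54% of all genes, 15.94% lower and 16.61% higher. The share of members called lower was thus 18.42% on day 13 and 21.05% on day 60, near the background in that direction. The median log2 fold change of the members was -0.07 on day 13, -0.04 on day 28, 0.01 on day 45 and -0.06 on day 60, while that of all genes stayed between -0.01 and 0.01. On day 13, 35 of 38 members were below 0, and 29, 14 and 30 were on days 28, 45 and 60. Because the members moved together within libraries, these counts do not stand for independent genes.

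**Figure D2:**
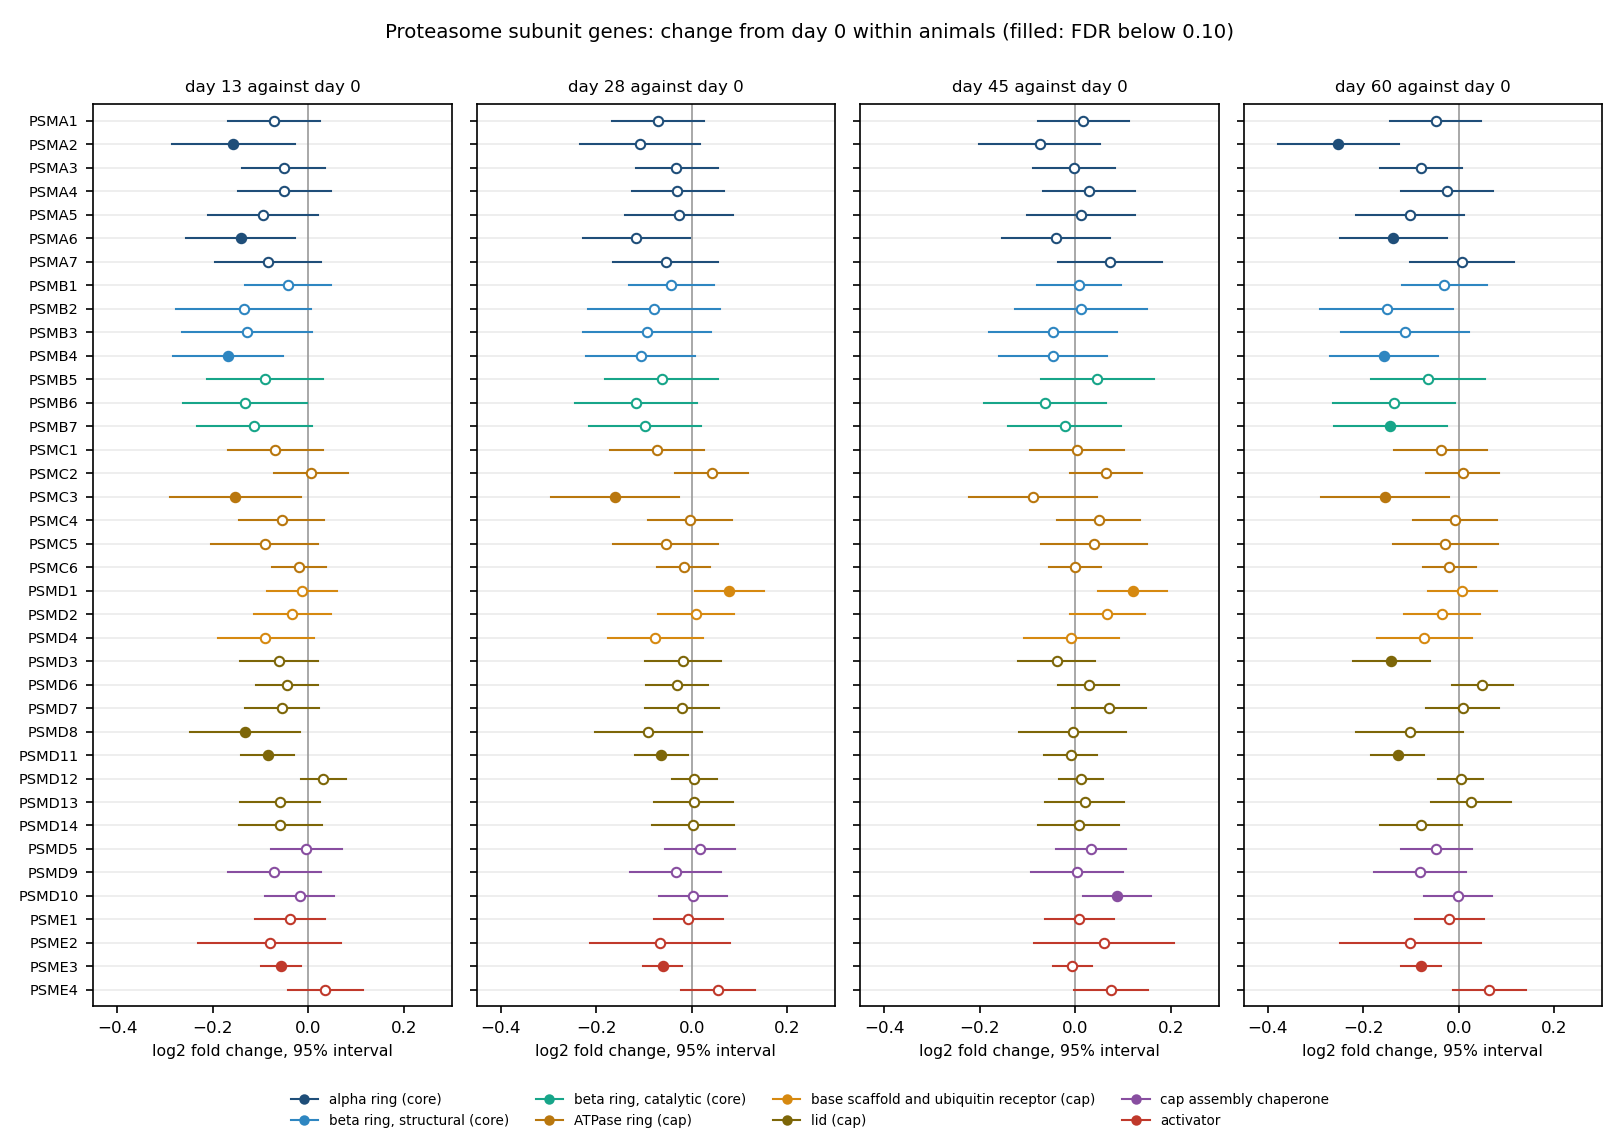
Log2 fold change from day 0 within animals, with its 95% interval, for each of the 38 members (rows, coloured by role) on days 13, 28, 45 and 60 (panels); filled points passed an FDR below 0.10 in edgeR. On days 13 and 60 nearly every core gene lay to the left of 0, with 7 and 8 members called lower, while day 45 was centred on 0 and held 2 called genes, PSMD1 and PSMD10, both higher.

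The counts rested in part on single libraries and animals. Without the low integrity library of animal 40, 15 members were lower on day 60 in edgeR in place of 8, and the added ones were PSMA3 and PSMA5 of the alpha ring, PSMB2, PSMB3 and PSMB6 of the beta ring, and PSMD8 and PSMD14 of the lid. These 15 are 39.47% of the members, beside 16.69% of all genes tested called lower in the same fit. Without the library of animal 50 on day 13, an omission chosen from earlier results of these data, 3 members were lower on that day in place of 7, beside 13.47% of all genes. Day 13 also gave 14 called members without animal 3, 11 without animal 27, 4 without animal 21 or 30, and 3 without animal 6, 18, 50 or 54. Day 28 gave 12 without animal 40, 8 without animal 54, and 2 without animal 10, 18, 21 or 43. Day 45 gave 1, PSMD1, without animal 6, 10, 21, 34, 42, 43 or 57. Day 60 gave 17 without animal 40, 13 without animal 54, and 5 without animal 10, 18, 21, 30 or 39. These counts hold both directions. On day 60, 16 of the 17 without animal 40 were lower, 12 of the 13 without animal 54 and 4 of the 5 without animal 21. The higher ones were PSME4 without animal 40 or 54 and PSMD6 without animal 21. On day 28, 6 of the 8 without animal 54 were lower. Called lower were 36.84% of members and 17.21% of all genes on day 13 without animal 3. Without animal 40 these shares were 31.58% and 19.11% on day 28 and 42.11% and 16.52% on day 60. Without animal 27 they were 28.95% and 16.76% on day 13. Without animal 54 they were 15.79% and 18.71% on day 28 and 31.58% and 17.72% on day 60. With few calls, they were 7.895% and 12.64% on day 13 without animal 6, and 2.632% and 16.72% on day 28 without animal 10. On day 60 without animal 21 they were 10.53% and 14.05%. Over the omissions of 1 animal the members' median ran from -0.09 to -0.05 on day 13, from -0.06 to -0.02 on day 28, from -0.00 to 0.02 on day 45 and from -0.07 to -0.03 on day 60, with the upper values of days 28, 45 and 60 reached without animal 21. Of the 21 calls on the 4 days, 8 held in all 26 fits that omitted 1 animal each, namely PSMA2, PSMD3, PSMD11 and PSME3 on day 60, PSMB4 and PSMD11 on day 13, PSME3 on day 28 and PSMD1 on day 45. The other 13 were lost without at least 1 animal, PSMC3 on day 13 without 15, PSMD8 on day 13 without 12 and PSMD1 on day 28 without 11. No called member changed direction in any of these fits. Scaling to library totals in place of TMM gave 3 higher and 0 lower members on day 28, in place of 1 and 3. With library totals the members' median was -0.043 on day 13, -0.002 on day 28, -0.024 on day 45 and -0.045 on day 60. The sign on day 45 thus depended on the scaling.

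In the core, 7 calls were made over days 13 and 60, each of them lower. All 14 core genes lay below 0 on days 13 and 28, 13 did on day 60 and 7 did on day 45. Of these 14, 3 passed the test as lower on day 13, 4 did on day 60 and 0 were called on days 28 and 45. PSMA2, an alpha ring subunit, had a lowest, median and highest level of 51.87, 62.50 and 127.7 CPM on day 0 (n = 26), 40.94, 55.25 and 101.4 CPM on day 13 (n = 25), and 41.28, 55.38 and 69.37 CPM on day 60 (n = 26). The ranges overlapped, and the highest libraries of day 0 had no counterpart on day 60. The log2 fold change of PSMA2 was -0.16 ± 0.06 (SE) on day 13 (edgeR FDR = 0.063) and -0.25 ± 0.06 on day 60 (edgeR FDR = 0.00155). On day 60 the gene fell by 16.01%, the furthest of any member on any day, and was lower in 22 of 26 animals. PSMA6, also of the alpha ring, was lower by similar amounts on both days, with log2 fold changes of -0.14 on day 13 and -0.14 on day 60.

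PSMB4, a structural beta subunit, had a lowest, median and highest level of 86.05, 100.1 and 149.1 CPM on day 0, 68.13, 91.04 and 117.6 CPM on day 13, and 58.77, 88.30 and 145.4 CPM on day 60. Its medians were lower on both later days while its ranges overlapped, and the range was wider on day 60 than on day 0. The log2 fold change was -0.17 ± 0.06 (SE) on day 13 (edgeR FDR = 0.0249), lower in 18 of 25 animals, and -0.16 ± 0.06 on day 60 (edgeR FDR = 0.0333), lower in 20 of 26. The other structural genes, PSMB1, PSMB2 and PSMB3, did not pass on any day at the reported settings. PSMB2 lay near the threshold on day 60, at -0.15 (edgeR FDR = 0.102). It passed there under some other settings, such as DESeq2 (adjusted p = 0.0766) and limma-voom (adjusted p = 0.0394).

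Of the catalytic genes, PSMB7, which carries the trypsin-like site, passed on day 60 alone. Its lowest, median and highest levels were 41.4, 48.3 and 69.6 CPM on day 0 and 29.8, 43.7 and 75.9 CPM on day 60. The day 60 range extended past that of day 0 on both sides, and the log2 fold change was -0.14 ± 0.06 (SE; edgeR FDR = 0.0636), lower in 19 of 26 animals. PSMB6, with the caspase-like site, had medians of 48.95, 44.55, 45.34, 46.46 and 43.10 CPM on days 0 to 60 and log2 fold changes of -0.13, -0.12, -0.06 and -0.14 on the 4 later days, at edgeR FDRs of 0.127, 0.173, 0.532 and 0.114. PSMB5, with the chymotrypsin-like site, had medians of 21.1, 19, 20.2, 22.3 and 19.3 CPM and log2 fold changes of -0.09, -0.06, 0.05 and -0.06, none of which passed (edgeR FDR = 0.282, 0.458, 0.635 and 0.463).

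In the cap, PSMC3 was the member of the ATPase ring that moved furthest, and the other 5 ATPase genes passed on no day. Its lowest, median and highest levels were 58.67, 67.92 and 110.1 CPM on day 0, 43.72, 61.88 and 89.10 CPM on day 13, 51.62, 61.49 and 108.2 CPM on day 28, 52.66, 66.43 and 86.19 CPM on day 45, and 39.50, 61.60 and 119.5 CPM on day 60. The medians of days 13, 28 and 60 lay close to each other and below those of days 0 and 45, with ranges that overlapped throughout. The log2 fold changes of PSMC3 were -0.15, -0.16 and -0.16 on days 13, 28 and 60 (edgeR FDR = 0.0919, 0.0621 and 0.0811), and -0.09 on day 45, which did not pass (edgeR FDR = 0.376).

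PSMD11, a lid subunit, combined a small change with a small spread. Its lowest, median and highest levels were 98.17, 109.34 and 130.36 CPM on day 0, 89.72, 104.02 and 121.87 CPM on day 13, 87.90, 105.20 and 133.98 CPM on day 28, 100.55, 108.87 and 121.19 CPM on day 45, and 88.95, 100.46 and 111.50 CPM on day 60. The range of day 60 sat lowest, while day 45 was back at the median of day 0 with the narrowest range. The log2 fold changes of PSMD11 were -0.09 ± 0.03, -0.06 ± 0.03, -0.01 and -0.13 ± 0.03 (SE), and the day 60 value had the smallest FDR of any member (edgeR FDR = 0.000211), lower in 22 of 26 animals. PSMD8, another lid subunit, was lower on day 13 at -0.13 (edgeR FDR = 0.0786), and PSMD3, also of the lid, was lower on day 60 at -0.14 (edgeR FDR = 0.00521). PSMD12 and PSMD14, the latter the deubiquitinase of the lid, passed on no day.

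At the reported settings, the members that passed as higher were a subunit of the cap base, PSMD1, and a chaperone of cap assembly, PSMD10. PSMD1, the scaffold subunit of the base, had a lowest, median and highest level of 63.82, 77.55 and 87.11 CPM on day 0, 68.72, 82.01 and 94.49 CPM on day 28, and 68.29, 83.34 and 99 CPM on day 45. The whole range moved upward on days 28 and 45, with wide overlap. Its log2 fold change was 0.08 ± 0.04 (SE) on day 28 (edgeR FDR = 0.0951), higher in 19 of 26 animals, and 0.12 ± 0.04 on day 45 (edgeR FDR = 0.00915), higher in 21 of 26. It was -0.01 on day 13 and 0.01 on day 60. PSMD10, the assembly chaperone, had medians of 23.9 CPM on day 0 and 25.2 CPM on day 45, with ranges of 18.55 to 31.52 and 20.40 to 30.85 CPM, and a log2 fold change of 0.09 ± 0.04 (SE; edgeR FDR = 0.0624) that was positive in 17 of 26 animals. The base genes PSMD2 and PSMD4, the latter a ubiquitin receptor, passed on no day, nor did the chaperone genes PSMD5 and PSMD9.

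Among the activators, PSME3 was the only one called at the reported settings. Its lowest, median and highest levels were 128.4, 141.7 and 161.5 CPM on day 0, 128.1, 137 and 157.3 CPM on day 13, 117.1, 138 and 155.5 CPM on day 28, 127.2, 144.1 and 153.6 CPM on day 45, and 116.6, 136.5 and 155.2 CPM on day 60. These ranges nearly coincide, and the gene was called at log2 fold changes of -0.06 ± 0.02 on day 13, -0.06 ± 0.02 on day 28 and -0.08 ± 0.02 (SE) on day 60 (edgeR FDR = 0.0373, 0.0192 and 0.0024). It thus fell by 3.85% to 5.31%. On day 45 it was -0.01. PSME1 had log2 fold changes of -0.04, -0.01, 0.01 and -0.02 and PSME2 of -0.08, -0.07, 0.06 and -0.10, at edgeR FDRs between 0.331 and 0.917. PSME4 was the highest of all members on days 13 and 60, at 0.04 and 0.06, and 0.06 and 0.08 on days 28 and 45, without passing (edgeR FDR = 0.535, 0.229, 0.30 and 0.157). Without animal 54 it passed as higher on days 28, 45 and 60 (edgeR FDR = 0.0591, 0.0976 and 0.0343). It also passed on day 28 with library totals, on day 45 without animal 30 and on day 60 without animal 40 (edgeR FDR = 0.096, 0.087 and 0.0842).

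**Figure D3:**
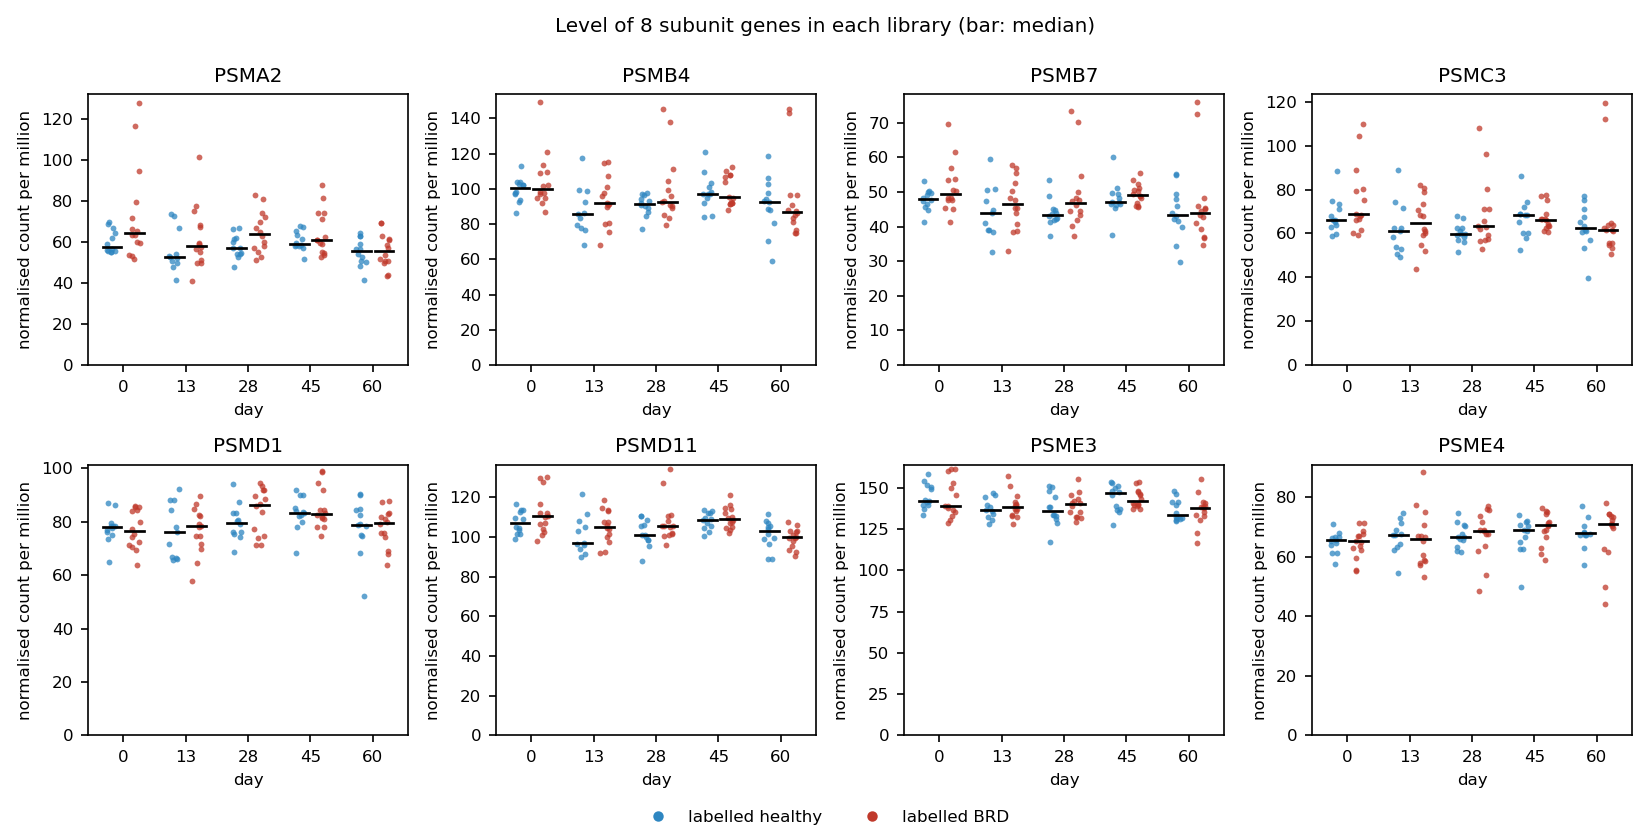
Normalised level (CPM) of 8 subunit genes in each library by day, healthy and BRD libraries side by side, with a bar at each median. PSMA2 had its highest libraries, up to 127.7 CPM, among the BRD animals on day 0, while PSME3 and PSMD11 varied little and overlapped on all days.

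The rest of the pathway was described by the same fits. The inducible subunits did not pass on any day: PSMB8 had log2 fold changes of -0.10, -0.01, 0.12 and -0.06, PSMB9 of -0.10, -0.03, 0.12 and -0.05, and PSMB10 of -0.31, -0.28, -0.06 and -0.19, with edgeR FDRs between 0.193 and 0.932. NFE2L1, the transcription factor that raises proteasome genes when proteasome activity is short, was lower on days 13 and 28, at -0.16 and -0.09, and higher on day 45 at 0.10 (edgeR FDR = 0.000119, 0.0260 and 0.0197), and it was -0.03 on day 60 (edgeR FDR = 0.607). POMP, the chaperone of core assembly, did not pass on any day, with log2 fold changes between -0.05 and 0.01. Of the 6 other assembly factors listed, which include POMP, 1 was lower on day 13 and 0 were called on the other days. Of 13 associated ubiquitin receptors and enzymes, 1 was higher and 6 lower on day 13, 1 and 4 on day 28, 4 and 1 on day 45, and 1 and 5 on day 60. Of 6 ubiquitin and activating enzyme genes, 0 were higher and 1 lower on day 13, 1 and 1 on day 28, 2 and 0 on day 45, and 1 and 2 on day 60. Of the 7 transcription control genes tested, which include NFE2L1, 0 were higher and 2 lower on day 13, 2 and 1 on day 28, 2 and 1 on day 45, and 1 and 0 on day 60. Beside these counts, 16.92% of all genes tested were called higher and 15.31% lower on day 13, and 18.51% and 17.33% on day 28. These shares were 15.30% and 14.60% on day 45, and 16.61% and 15.94% on day 60.

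The erythroid, neutrophil, monocyte and platelet lists moved by day far more than the members did, and the type I interferon list did so from day 28. Of 10 erythroid markers, 9 were higher on day 13, 7 on day 28, 8 on day 45 and 6 on day 60. Their summed level ran from 33.4 to 6990 CPM on day 0, with a median of 235, and from 178 to 84900 CPM on day 13, with a median of 6120. Of 7 neutrophil markers tested, 4, 5, 3 and 4 were lower on the 4 later days, and the median of their sum went from 1810 CPM on day 0 to 1360, 1180, 1210 and 1120 CPM. Of 6 monocyte markers, 3, 4, 3 and 5 were lower. Of 11 type I interferon genes, 0 were lower on day 13 and 9 on each later day, with a summed median of 3050 CPM on day 0 and 1220 CPM on day 60. The summed median of the platelet list was 896 CPM on day 0 and 1410, 1780, 1270 and 1470 CPM later. The summed levels of the lymphocyte lists moved less. The T cell list had medians of 1440, 1310, 1300, 1320 and 1360 CPM on days 0 to 60. The B cell list had 1990, 2080, 2190, 2350 and 2230 CPM, and the natural killer list 261, 282, 252, 281 and 280 CPM. None of these lists was at 0 in any library. The shares of all genes called higher and lower on each day, given above, are the background for the marker counts. The part of these shifts in the members' changes was not tested.

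The change in each disease label was also taken as a separate contrast of the same fit of all libraries. The median log2 fold change of the members was -0.07 in healthy and -0.07 in BRD animals on day 13, -0.06 and -0.02 on day 28, 0.02 and -0.00 on day 45, and -0.05 and -0.05 on day 60. Below 0 were 36 members in healthy and 34 in BRD animals on day 13, 34 and 24 on day 28, 8 and 20 on day 45, and 28 and 33 on day 60. By these contrasts, the healthy animals gave 0, 1, 0 and 1 called members on the 4 days, beside 10.95%, 20.98%, 8.555% and 11.64% of all genes tested. The BRD animals gave 1, 1, 2 and 4, beside 17.43%, 20.05%, 22.51% and 19.62%. On day 60, PSMA2 changed by -0.37 on the log2 scale in BRD animals (edgeR FDR = 0.00133) and by -0.14 in healthy animals (edgeR FDR = 0.421). The difference between the labels, tested as an interaction, was -0.23 with a 95% interval of -0.49 to 0.02 (unadjusted p = 0.072, edgeR FDR = 1). For no member did the change from day 0 differ between labels by the edgeR interaction test on days 13, 28, 45 or 60, and 0 of all genes tested were called (0% on each day). At an unadjusted p under 0.05 there were 619, 863, 801 and 596 such genes, and 0 of them were members on any day.

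Between cattle labelled BRD and healthy cattle, most members had estimates slightly above 0, and none passed the test. Above 0 were 36, 29, 38, 25 and 28 of the 38 members from day 0 to day 60, with median log2 fold changes of 0.07, 0.03, 0.13, 0.01 and 0.05. Single animals moved these medians. Without BRD COMBO animal 54 the median was 0.08 on day 28 and -0.02 on day 60, when 13 members were above 0. Without BRD COMBO animal 16 it was 0.00 on day 13, with 19 above 0, and without healthy COMBO animal 3 it was 0.07 on day 13. Over all omissions of 1 animal it ran from 0.04 to 0.10 on day 0 and from -0.01 to 0.03 on day 45. Over all genes tested, 9426, 9250, 9954, 9663 and 9871 of 18937 were above 0, with medians between -0.01 and 0.02. No member passed FDR below 0.10 in edgeR on any day, beside 0.0158%, 0%, 0.00528%, 0% and 0.00528% of all genes. At an unadjusted p under 0.05 there were 4, 0, 11, 0 and 1 members, and 1347, 716, 1635, 800 and 689 of all genes. The members moved together, so a day on which all 38 lie on the same side counts a shared level once rather than 38 genes. The direction was not shared by the supplement groups. As contrasts of the same fit, the INR animals gave medians of -0.04, 0.20, 0.17, 0.01 and 0.16 on the 5 days. The AAC animals gave 0.02, -0.05, -0.03, 0.01 and -0.19, with 0 members called in either supplement group. Among COMBO animals label and starting pen cannot be told apart.

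On day 0, PSMA2 had the lowest p. It ranged from 54.95 to 69.63 CPM in the 12 healthy animals, with a median of 57.7, and from 51.87 to 127.7 CPM in the 14 BRD animals, with a median of 64.5. The BRD libraries covered the whole healthy range and extended above it. The log2 fold change was 0.31 with a 95% interval of 0.13 to 0.50 (unadjusted p = 0.00126, edgeR FDR = 0.286). PSME1 followed, with medians of 340 CPM in healthy and 362 CPM in BRD animals and a log2 fold change of 0.14 (0.02 to 0.27; edgeR FDR = 0.607), then PSMD7, a lid subunit, at 0.13 (0.02 to 0.24; edgeR FDR = 0.623). PSME2 stood at 0.24 (0.02 to 0.47; edgeR FDR = 0.651), with ranges of 76.33 to 112.98 CPM in healthy and 73.62 to 187.6 CPM in BRD animals. The lowest member was PSME4 at -0.00 (-0.13 to 0.12). Without BRD COMBO animal 16, PSMA2 at 0.40 and PSME1 at 0.20 passed on day 0 (edgeR FDR = 0.00707 and 0.0921), the only omission of 1 animal under which a member passed between labels.

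On day 28, PSMB2, a structural beta subunit, had the lowest p and the highest value. It ran from 36.03 to 57.77 CPM in healthy animals, with a median of 48.08, and from 41.78 to 86.95 CPM in BRD animals, with a median of 55.09. The groups overlapped over most of the healthy range. The log2 fold change was 0.27 with a 95% interval of 0.07 to 0.47 (edgeR FDR = 0.522), and PSMD8 at 0.20 and PSMA6 at 0.19 were next (edgeR FDR = 0.543 and 0.545). PSME4 was again the lowest, at 0.01 (-0.11 to 0.13). The catalytic genes PSMB5, PSMB6 and PSMB7 lay between 0.14 and 0.18, with none called.

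On days 13, 45 and 60 the differences were smaller. The lowest p on day 13 belonged to PSMA2 at 0.15 (95% interval -0.05 to 0.34), followed by PSMD13 of the lid at 0.09 and PSME1 at 0.07, with PSMD6 lowest at -0.04. On day 45 it belonged to PSMD10 at 0.11 (-0.01 to 0.23), followed by PSMC6 of the ATPase ring at 0.06 and PSMD14 at 0.07, with PSMD4 lowest at -0.05. On day 60 it belonged to PSMD13 at 0.15 (0.01 to 0.29), followed by PSMB3 at 0.13 and PSMD8 at 0.11, with PSMD10 lowest at -0.04. The edgeR FDR was 1 for each of these. The intervals exclude a doubling for every member on every day, since the upper limit was at most 0.50 on the log2 scale.

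**Figure D4:**
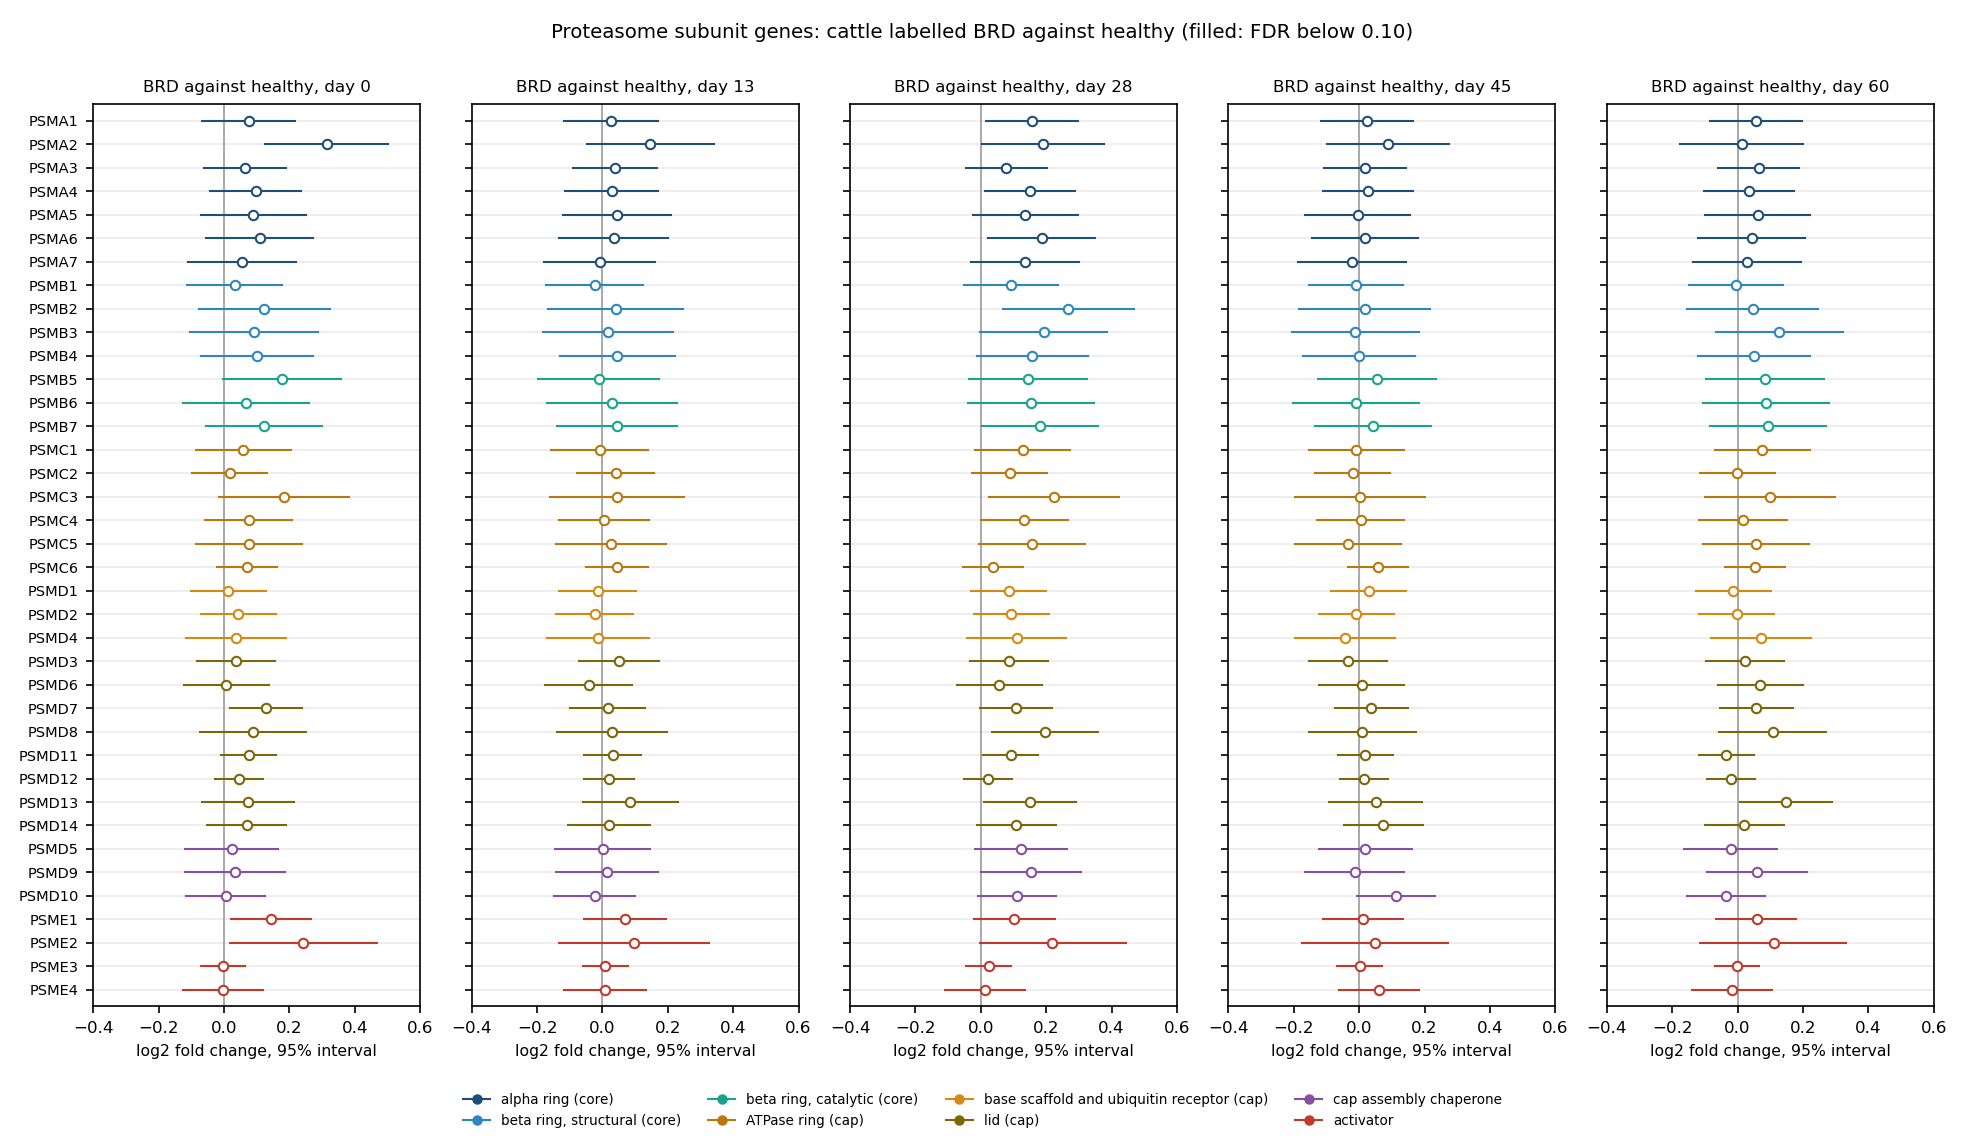
Log2 fold change of BRD against healthy animals with its 95% interval for the 38 members (rows, coloured by role) on each sampling day (panels); no point is filled because none passed an FDR below 0.10 in edgeR. All 38 points lie above 0 on day 28, with a median of 0.13, and most intervals include 0.

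Beside these label differences, 10 of the 11 type I interferon genes were above 0 in BRD against healthy animals on day 0, 10 on day 13, 11 on day 28, 9 on day 45 and 4 on day 60, with 0 called. The inducible subunits were above 0 in 3, 1, 3, 1 and 3 of 3 genes. PSMB10 was 0.71 higher on the log2 scale on day 0 (95% interval 0.19 to 1.23; edgeR FDR = 0.457), and PSMB8 and PSMB9 were 0.20 and 0.18 (edgeR FDR = 0.827 and 0.832). The part of these in the members' values was not tested.

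The balance of constitutive to inducible catalytic subunits was compared within libraries, as the log2 ratio of counts plus 0.5, so that it does not depend on library scaling. PSMB5 to PSMB8 had a median of -4.07 on day 0 and passed no test by day or by label. PSMB6 to PSMB9 was lower on day 45 than on day 0 by 0.18 on average (SD of the change 0.26, n = 26). It fell in 21 of 26 animals (2-sided permutation test with sign flips over animals, p = 0.0012, adjusted p = 0.0324 over 27 tests). On days 13, 28 and 60 its mean change was -0.04, -0.09 and -0.09 (permutation test, adjusted p = 0.943, 0.659 and 0.292). PSMB7 to PSMB10 varied most, from -1.40 to 0.90 on day 0, and its mean was -0.55 in BRD and -0.04 in healthy animals on that day (2-sided permutation test over animals, p = 0.0167, adjusted p = 0.226). No ratio passed between labels on any day, and of the 27 tests 1 passed at an adjusted p below 0.10. The day 45 difference in PSMB6 to PSMB9 was -0.21 in healthy animals (permutation test, adjusted p = 0.0102) and -0.16 in BRD animals (permutation test, adjusted p = 0.389). On day 60 the same ratio passed in healthy animals alone, at -0.10 (permutation test, adjusted p = 0.00408), and without animal 18, at -0.11 (adjusted p = 0.0661). PSMB7 to PSMB10 passed on day 13 in BRD animals alone, at 0.54 (permutation test, adjusted p = 0.0562), and was -0.19 in healthy animals (adjusted p = 0.704), a difference between labels that was not tested. It also passed between labels on day 0 when animal 9 or animal 17 was left out, at -0.57 and -0.62 (permutation test, adjusted p = 0.095 and 0.0219).

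**Figure D5:**
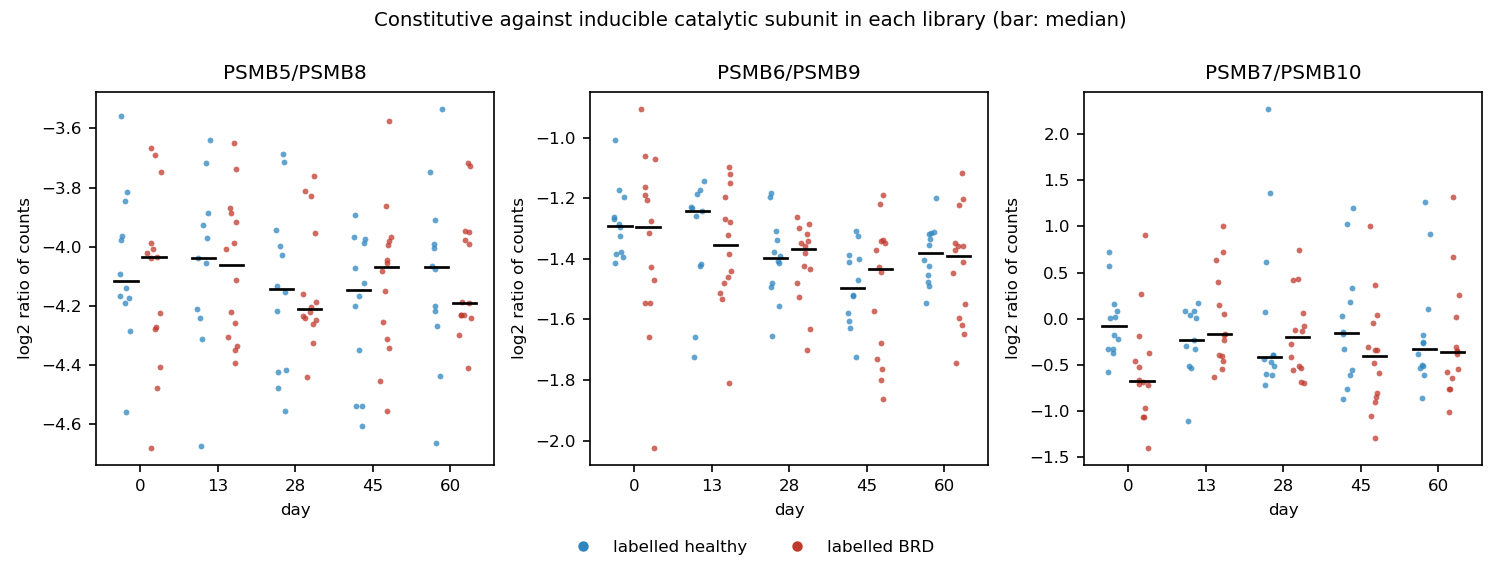
Log2 ratio of constitutive to inducible catalytic subunit counts (plus 0.5) in each library by day for PSMB5/PSMB8, PSMB6/PSMB9 and PSMB7/PSMB10, healthy and BRD side by side, with a bar at each median. PSMB6/PSMB9 sat lower on day 45 than on day 0 in 21 of 26 animals, while the ranges of all 3 pairs overlapped between days.

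Between supplement groups, no member passed the test on any day. In all 15 comparisons 0 of 38 members passed FDR below 0.10 in edgeR, averaged over both labels. For AAC against INR, from day 0 to day 60, 0%, 0.0422%, 0.0106%, 0% and 0% of all genes were called. For COMBO against INR these were 0%, 0%, 0%, 0% and 0.00528%, and for AAC against COMBO 0.565%, 0.929%, 0.0317%, 0% and 0%. At an unadjusted p under 0.05, AAC against INR gave 0, 13, 2, 0 and 1 members, COMBO against INR 3, 0, 8, 0 and 0, and AAC against COMBO 3, 4, 0, 0 and 0.

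The members' medians differed most on day 13, when they were 0.17 higher on the log2 scale in AAC than in INR, with 36 of 38 above 0, and 0.15 higher in AAC than in COMBO, with 36 of 38 above 0. PSMD7 had the lowest p in both, at 0.21 with a 95% interval of 0.08 to 0.34 against INR (edgeR FDR = 0.262) and at 0.21 with an interval of 0.06 to 0.36 against COMBO (edgeR FDR = 0.193). These comparisons share the AAC animals. With 1 animal left out, the first ran from 0.12 to 0.19 and the second from 0.09 without animal 31 to 0.22 without animal 3. As a contrast of the healthy cattle in the same fit, the first was 0.29. By that contrast COMBO against INR was 0.185 on day 13, in place of 0.014 over both labels. AAC against COMBO changed sign, from -0.044 to 0.064 on day 0, from -0.083 to 0.056 on day 28 and from -0.046 to 0.132 on day 60. COMBO against INR on day 0 also changed sign, from 0.063 to -0.078. On day 28 the median was 0.13 higher in COMBO than in INR, which was 0.07 without animal 54, and on day 45 all 3 medians lay between -0.05 and -0.01. On day 0, the first sampling, PSMA2 was 0.31 higher in COMBO than in INR and 0.39 lower in AAC than in COMBO (edgeR FDR = 0.509 and 0.138), which share the COMBO animals. Without animal 16 these were 0.44 and -0.51 (edgeR FDR = 0.017 and 0.00259), and PSME2 passed with them at 0.43 and -0.44 (edgeR FDR = 0.0853 and 0.0594). The difference of PSMA2 between AAC and COMBO also passed in DESeq2 at -0.40 (adjusted p = 0.0655) and when a mean of at least 1 CPM was required, at -0.39 (edgeR FDR = 0.0996). PSMD10 had the lowest p for AAC against INR on days 28, 45 and 60, at 0.16, 0.13 and 0.16 (edgeR FDR = 0.698, 0.895 and 0.835). PSMD7, PSMA2 and PSMD10 were named here after their values were seen.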

How the data were processed

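Whole blood RNA of 26 steers was measured by stranded poly(A) RNA-seq in 129 libraries. The authors deposited 1 table of gene counts, not normalised. Per the submitters' processing notes, reads were checked with FastQC 0.11.9, trimmed with Trimmomatic 0.39, mapped with HISAT2 2.1.1 and assembled with StringTie 2.2.0. The study's methods give ARS-UCD1.3 as the assembly and prepDE as the source of the counts, which are derived from coverage rather than tallied reads. The depth, 31613545 to 61692136 counts per library, sets the counting error, and the values do not cover variation beyond these animals.

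The counts were analysed in R 4.3.3 with edgeR 4.0.16. Genes passing filterByExpr over the 30 groups were kept, TMM factors and a common dispersion were used, and quasi-likelihood F-tests were adjusted by Benjamini-Hochberg over the 18937 genes. The biological coefficient of variation was 28.4% with animal as a block and 39.0% without it. Same-numbered libraries come from the same animal, and for 128 of 129 libraries the closest library of another day over the 1000 most variable genes was of that animal. Log2 CPM used a prior count of 2. Ratios of catalytic subunits were tested by permutation over animals with 100000 resamples. Alternatives used DESeq2 1.42.0, limma 3.58.1, other factors, filters, dispersions and thresholds, and each animal left out, the last with the dispersion of all animals. Parts of the animals were taken as contrasts of the full fits, except for the ratios, where they were tested alone. The models were tested on simulated counts with no animal effect and with planted changes larger than those of the members. That test does not cover changes as small as theirs. Figures were drawn with matplotlib 3.10.9.

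Genes named are the catalytic and activator genes, and in each day and BRD comparison the 3 of smallest p and those of lowest and highest fold change, with PSMB8, PSMB9, PSMB10, POMP and NFE2L1. The remaining called genes are given beside them. The members, gene lists and rules were chosen with earlier results of these data known. Of the marker and pathway lists, CSF3R, GBP2, GP1BB and DDI2 matched no tested gene. Sequences and coordinates were not used here.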

Additional observations from a re-analysis of the deposited data

Results flagged for a closer look

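Within each combination of supplement, label and day with 4 to 10 libraries, the highest and lowest library were checked for a gap to the next library that took up an unusually large share of the group's range (Dixon's 95% limit). This was done for the 3 catalytic genes, the 4 activators and the mean deviation of the 38 members, which made 192 groups, and 19 held such a library. Chance alone passes this limit in about 1 in 20 groups, and the measures share libraries, so the groups are not independent.

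BRD INR animal 40 held 7 of the 19. On day 60, in the library noted by the study for low RNA integrity, it was the highest of 7 for PSMB5 at 33.1 CPM (next 23.1), for PSMB6 at 83.6 CPM (next 47.2) and for PSMB7 at 75.92 CPM (next 46.05), and the lowest of 7 for PSME4 at 49.9 CPM (next 69.8). On day 28 it was the highest for PSMB5 at 29.3 CPM and for PSMB7 at 70.1 CPM, and on day 13 its mean deviation of -0.40 was the lowest, with the next library at -0.03.

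Healthy INR animal 30 held 4. On day 28 it was the lowest of 4 for PSMB5 at 16.5 CPM and for the mean deviation at -0.27, and on day 45 it was the highest of 4 for PSMB7 at 60.1 CPM and for the mean deviation at 0.17. BRD AAC animal 21 was the highest of 4 on day 0 for PSMB5 at 34.21 CPM (next 21.13) and for the mean deviation at 0.34.

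The remaining libraries that stood apart were the highest of their 4. They were healthy AAC animal 49 for PSMB5 on day 45 at 25.4 CPM and for PSME3 on day 60 at 146 CPM, healthy COMBO animal 3 for PSMB5 on day 13 at 27.4 CPM, healthy INR animal 10 for PSME2 on day 0 at 112.98 CPM, healthy COMBO animal 42 for PSME3 on day 0 at 158 CPM and BRD AAC animal 9 for PSME4 on day 13 at 70.7 CPM.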

How the results depend on the processing

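No fold change of a called member changed direction under any setting. The members called lower on day 13, 7 at the reported settings, were 4 with library totals, 3 at FDR below 0.05, 15 with limma-voom, 0 in healthy and 1 in BRD animals alone. The 4 called on day 28 were 1 at FDR below 0.05, 1 without the replicate block, 1 in healthy and 1 in BRD animals alone. The 2 of day 45 were 1 with library totals, 1 at FDR below 0.05, 1 without the replicate block and 0 in healthy animals. The 8 of day 60 were 5 at FDR below 0.05, 1 in healthy and 4 in BRD animals. After seeing the data, 2 omissions were added: without the library of animal 50 on day 13, 3 members were called on that day, and without that of animal 40 on day 60, 15 were. DESeq2 gave 7, 5, 2 and 10 on the 4 days. Shares of all genes called are given above for the single labels and the omitted libraries. For the other settings here and below they are not given, so those counts are not set against a background. For AAC against COMBO on day 0, 1 member was called by DESeq2 and 1 with a mean of at least 1 CPM. Of the 12 day comparisons of catalytic ratios, 2 passed in healthy animals in place of 1, with the adjustment over 12 tests in place of 27. By construction a stricter threshold cannot raise a count. For the other settings the cause of the differences was not tested. Member counts for single labels are contrasts of the fit of all animals.

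With each animal left out in turn, the counts ran from 3 to 14 on day 13, 2 to 12 on day 28, 1 to 3 on day 45 and 5 to 17 on day 60. They ran from 0 to 2 for BRD against healthy, COMBO against INR and AAC against COMBO on day 0, from 1 to 2 for the ratios by day and from 0 to 1 for the ratios by label, and all other counts stayed at 0. Libraries of an animal are paired by construction. Fitting the day comparisons without this block gave 9, 1, 1 and 6 called members. The label and supplement fits held no block because each animal had 1 label and 1 supplement. With 12 healthy and 14 BRD animals, small changes in single genes may pass unseen.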

Other observations

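Of the proteasome genes left out for their low level, PSMA8, the alpha subunit of the testis proteasome, had counts in 17 libraries and at most 5 in any library. PSMB11, the catalytic subunit of the thymus proteasome, had counts in 29 libraries and at most 4 in any library. Its mean over libraries was 0.00958 CPM and that of PSMA8 was 0.00642 CPM, and no comparison was made for either.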
